A study of Mus musculus with 13 samples.

Results

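Interferon stimulated genes were followed in cultured mouse hepatocytes from chronically injured livers. The set was 39 genes taken by symbol from the count and FPKM tables, out of 27141 genes listed there, and all 39 passed the filter on low counts, as did 19884 genes in all. The cells, called dHeps, were wild-type (WT) hepatocytes of CCl4-injured mice on a C57BL/6 background. They were taken by enzymatic perfusion with no cell sort described for these cultures. The paper reports that its isolation enriched hepatocyte-derived cells, judged by a lineage label in injured tracing mice. Every group shared the CCl4 injury, a serum-free hepatocyte maintenance medium and 16 days of culture, and age was not used here. DMSO was the solvent control. 5C was a mixture of 5 compounds, namely salidroside (S), CID755673 (C), a protein kinase D inhibitor, forskolin (F), an adenylate cyclase activator, GSK429286A (G), a ROCK inhibitor, and ETC-1002 (E), an AMPK activator. In 5C-G, 5C-C, 5C-E, 5C-F and 5C-S the compound of that letter was left out. There were 13 RNA-seq libraries with total counts from 30195867 to 45491932, 2 in each of 6 groups and 1 of 5C-S, and they are called A and B within a group. The labels do not say that libraries of a group came from separate mice, so p-values measure only the spread between these libraries.

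Interferons are secreted signalling proteins. Type I interferon is released by cells that sense viral or self nucleic acid, and it binds IFNAR1 and IFNAR2, the receptor-bound kinases JAK1 and TYK2 are activated, and a complex that holds STAT2 and IRF9 binds the interferon stimulated response element (ISRE) in promoters. Type II interferon, a product of T and NK cells, acts through another promoter element, the gamma activated site (GAS). In the liver, hepatocytes and Kupffer cells, the resident macrophages, both express interferon stimulated genes.

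The members covered 10 roles, and all 39 are annotated as protein coding in GENCODE M39 (GRCm39). As a mean of the 7 group means, 7 members had at least 10 FPKM (fragments per kilobase of transcript, scaled to library size), 24 had from 1 to under 10, and 8 had under 1. Bst2, which encodes tetherin, a protein that holds budding virus on the cell surface, was the highest at 94.2 FPKM. Gbp2, a guanylate binding GTPase, followed at 34.5 FPKM. Mx1, a GTPase gene, was the lowest at 0.104 FPKM, with 0 to 58 counts per library. Of the 39, 16 had their lowest group mean in 5C-C and 12 had it in 5C, and 11 had their highest in 5C-G. The 2 libraries of a group differed by more than 1 on the log2 CPM scale for 2 members in DMSO, 2 in 5C and 1 in 5C-E. There were 4 such members in 5C-F, 5 in 5C-G (Isg15, Ifit3, Oas2, Mx2 and Rsad2) and 6 in 5C-C (Herc6, Mx1, Mx2, Rsad2, Cmpk2 and Ifi35).

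Promoters from RefSeq (GRCm38.p6, 250 bases before to 50 after the start) were matched for 29 of the 39 members. The ISRE core GAAANNGAAA, searched on both strands, stood in 15 of these 29 (51.7%), against 3.99% of 27025 genes with a promoter of that length. The GAS letters TTCNNNGAA stood in 8 (27.6%), against 9.55% of those genes. The windows printed here end before the start site and come from 5 roles, 1 member each, to show how the core lies in members that the results describe. Capitals mark every match to the core, on either strand, and each window is read 5′ to 3′ along the gene. They lie at chr4:156200840-156200919 (minus strand) for Isg15, chr19:34640769-34640848 (plus) for Ifit1, chr5:120907526-120907574 (minus) for Oas1a, chr8:71537552-71537631 (minus) for Bst2 and chr3:142530248-142530327 (plus) for Gbp7.
Isg15: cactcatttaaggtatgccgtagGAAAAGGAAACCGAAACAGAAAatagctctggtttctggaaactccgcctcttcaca
Ifit1: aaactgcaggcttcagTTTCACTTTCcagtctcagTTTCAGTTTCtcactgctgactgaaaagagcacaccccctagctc
Oas1a: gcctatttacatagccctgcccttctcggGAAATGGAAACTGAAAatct
Bst2: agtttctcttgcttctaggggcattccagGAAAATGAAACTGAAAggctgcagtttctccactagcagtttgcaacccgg
Gbp7: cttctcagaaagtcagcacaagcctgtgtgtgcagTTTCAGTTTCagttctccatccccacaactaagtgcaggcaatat

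Isg15 held 3 overlapping matches, beginning 78, 72 and 66 bases before its start, whereas Gbp7 held 1, beginning 53 bases before it. In Oas1a the 2 matches ended close to the start, the nearer one beginning 14 bases before it. In 5C-G against 5C, 4 of the 15 members with a core rose and 5 of the 14 without one rose, where 7.47% of all genes rose, with median log2 fold changes of 0.49 and 0.46. In 5C against DMSO 2 with a core and 0 without one fell, where 2.89% of all genes fell, and both medians were -0.14. The third that fell there, Oas2, was not among the 29 matched.

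**Figure D1:**
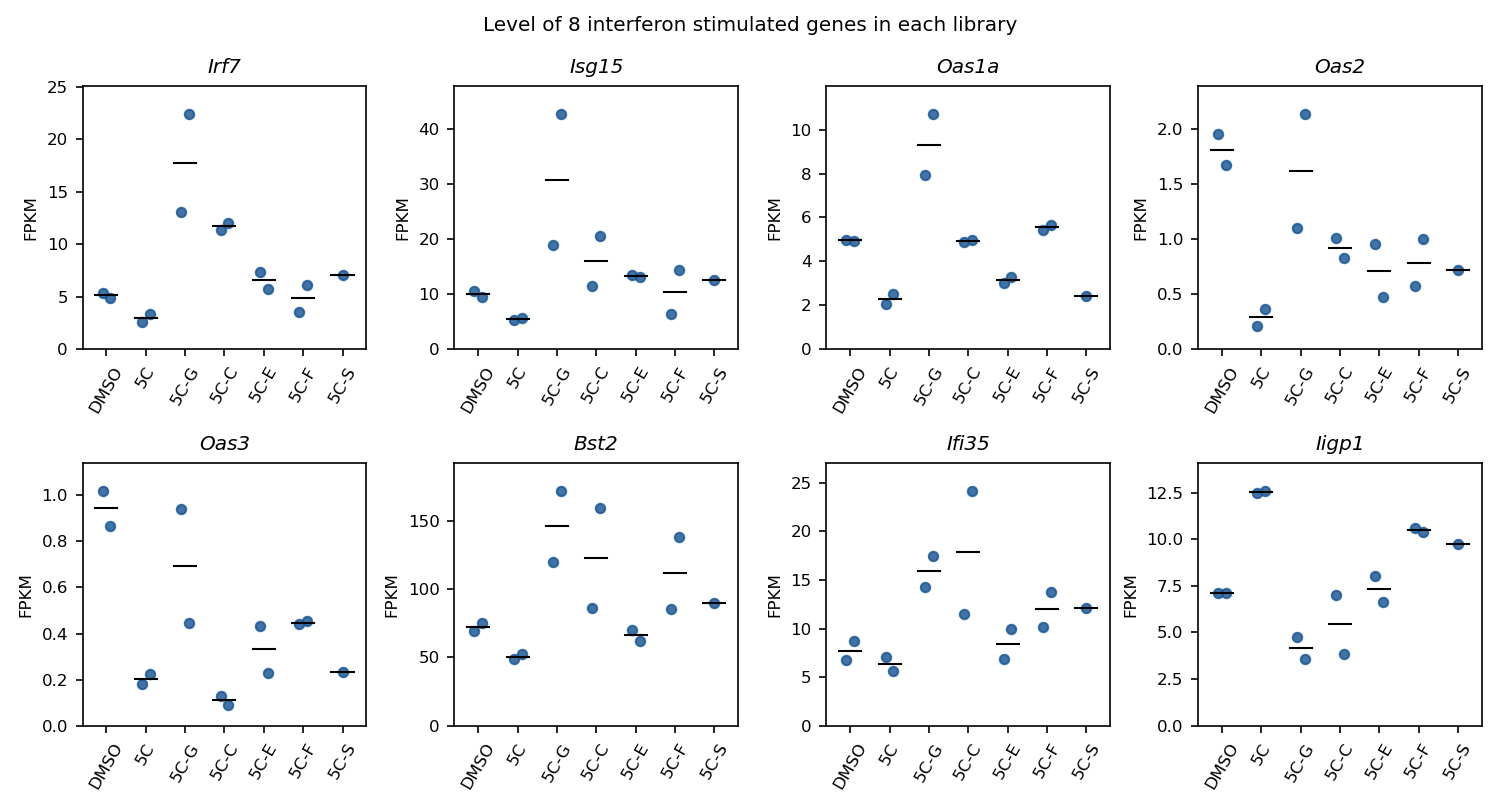
FPKM of 8 members in each library (points) with the group mean (line), for DMSO, 5C and 5C with 1 compound left out; 5C-S has 1 library. Irf7, Isg15 and Oas1a reached their highest levels in 5C-G, Oas2 and Oas3 were low in 5C, and Iigp1 was highest in 5C.

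The first comparison asks what the 5 compounds did to these genes relative to solvent. In 5C, 3 of the 39 members fell, all of the OAS family, whose enzymes make the 2'-5' oligoadenylates that activate RNase L. None rose. A call needed an adjusted p under 0.05 in edgeR's quasi-likelihood test and a log2 fold change beyond 1 in size, and 2.89% of all genes tested were called lower and 1.66% higher. The median log2 fold change of the 39 members was -0.15, beside 0.01 over all genes. With a correction per library for GC content and gene length, again 3 fell and none rose, where 2.89% of all genes fell and 1.85% rose.

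Oas2 (chr5:120868398-120887933) had 1.95 and 1.67 FPKM in the DMSO libraries and 0.214 and 0.366 in the 5C libraries. Oas3 (chr5:120891163-120915729) went from 1.02 and 0.867 FPKM to 0.181 and 0.226. Oas1a (chr5:121031070-121046449) went from 4.96 and 4.95 FPKM to 2.05 and 2.52. The groups did not overlap for any of these 3 neighbouring genes, which a call at this fold makes likely. The log2 fold changes were -2.72 ± 0.47 (SE, edgeR adjusted p = 0.00111) for Oas2, -2.28 ± 0.45 (0.00316) for Oas3 and -1.19 ± 0.27 (0.0106) for Oas1a. The OAS-like genes Oasl1 and Oasl2 were not called, and Oasl2 stayed at 12.9 to 14.0 FPKM over the 4 libraries. Only Oas2 was called in each of the 12 alternative analyses, and without the library 5C A it was the single member called. Oas1a was then at -1.03 and Oas3 at -2.12, and over the alternatives their adjusted p ranged from 0.000769 to 0.171 and from 3.26e-05 to 0.0689.

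The transcription factors did not pass the test here. Irf7, the master factor that sustains type I interferon production, had 5.36 and 4.92 FPKM in DMSO and 2.64 and 3.37 in 5C, which do not overlap, and lay at -0.85 ± 0.29 on the log2 scale (edgeR adjusted p = 0.101). Isg15, a ubiquitin-like modifier, had 10.5 and 9.54 FPKM against 5.25 and 5.70, also apart, at -0.95 ± 0.42 (0.247). Ifit1, an RNA cap binding protein, lay the other way at 1.5 and 2.13 against 3.67 and 3.30 FPKM, at 0.87 ± 0.34 (0.176). Usp18, the protease that removes ISG15 and dampens the receptor, had 2.98 and 3.47 against 3.05 and 3.05 FPKM, which overlap, at -0.15 ± 0.26 (0.838). The 6 GBP and IRG GTPases, which attack the vacuoles of intracellular pathogens, ran from -0.22 to 0.75 with none called.

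Markers of other cell types moved with this comparison. The hepatocyte markers were all present (8 of 8), with a summed level, mostly Alb, from 10577 to 11823 FPKM in DMSO and 5C. Tat was the one of them called, lower, from 81.3 and 75.4 FPKM to 33.6 and 32.3. Of 12 macrophage markers, 10 were called lower in 5C and none higher, and their summed level was 5087 and 5140 FPKM in DMSO against 577 and 661 in 5C. In RNA from mixed cells, fewer cells of a type and less RNA per cell cannot be told apart. Clec4f, which marks Kupffer cells, was at most 0.784 FPKM anywhere and was listed at 0 in 3 libraries. Cd5l, of the same 12, had 45.8 and 50.6 FPKM in DMSO and 6.03 and 7.13 in 5C. Marco had 17.1 and 15.9 FPKM in DMSO and 1.52 and 1.27 in 5C. Of the 5 markers listed as endothelial Lyve1 alone was called, lower, from 66 and 77.3 FPKM to 2.89 and 3.01. Lyve1 is also counted among resident macrophage genes, so its change cannot be assigned to endothelial cells. Kdr had 11.4 and 11.6 FPKM in DMSO and 10.4 and 9.08 in 5C, and the other 3 were under 0.5 FPKM. T and NK cell markers reached at most 5 counts and B cell markers at most 16 in any library, and the 4 plasmacytoid dendritic cell markers in the tables summed to 0.896 to 2.67 FPKM. Of 7 stellate cell and fibroblast markers Lrat was called higher and Des lower, and of 5 cholangiocyte markers Epcam was called higher. The part of these cells in the OAS result was not tested.

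**Figure D2:**
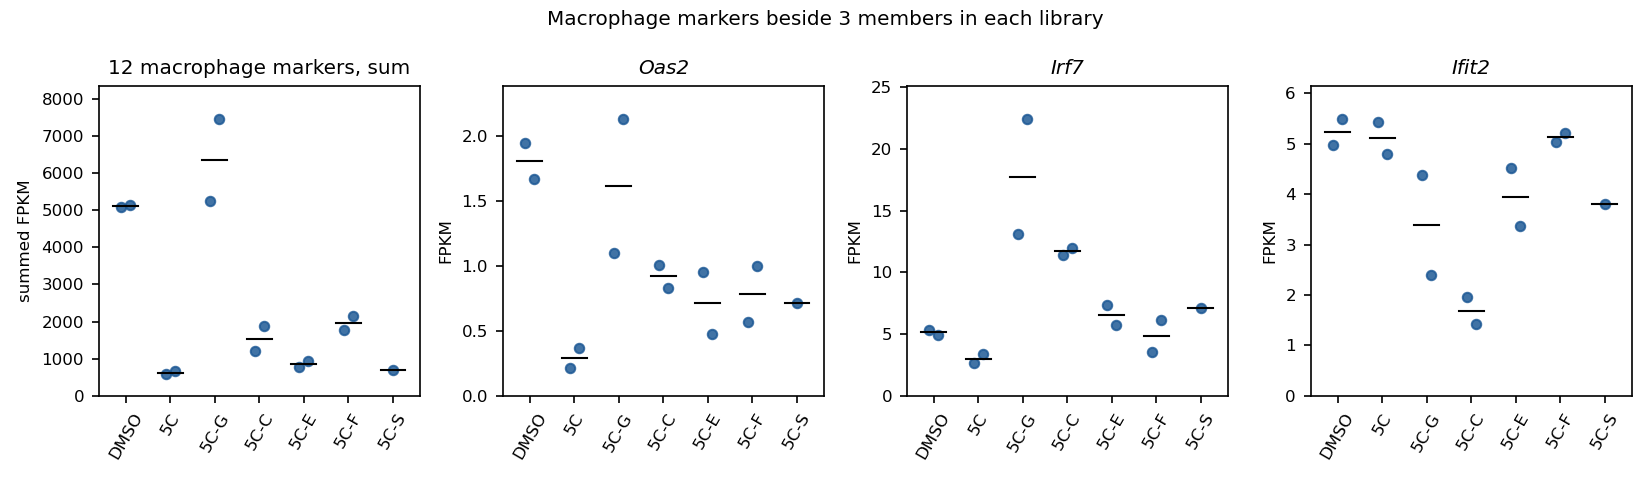
Summed FPKM of 12 macrophage markers and FPKM of Oas2, Irf7 and Ifit2 in each library (points), with group means (lines). The marker sum was 5087 and 5140 FPKM in DMSO, 577 and 661 in 5C, 5255 and 7453 in 5C-G and 1197 and 1883 in 5C-C, and Irf7 was at 5.36 and 4.92, 2.64 and 3.37, 13.1 and 22.4, and 11.4 and 12 FPKM in the same groups.

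The remaining comparisons ask what happened when 1 compound was missing from the mixture. They all used the same 5C libraries as the reference, so their values stand side by side and are not independent.

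Without the ROCK inhibitor GSK429286A (5C-G against 5C), 11 of the 39 members rose and 1 fell, where 7.47% of all genes rose and 5.64% fell. The median member was at 0.49, beside -0.01 over all genes. The risers were Irf7, Isg15, Oas1a, Oas2, Oas3, Oasl1, Bst2, Zbp1, Psmb8, Xaf1 and Ifi35, and the one that fell was Iigp1.

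Irf7 (chr7:140842619-140846398) had 13.1 and 22.4 FPKM in 5C-G, all above the 2.64 and 3.37 of 5C. It rose by 2.72 ± 0.30 on the log2 scale, or 6.60-fold (edgeR adjusted p = 8.58e-06). Its partners in interferon signalling did not pass, and Irf9 and Stat2 had log2 fold changes of 0.47 and 0.03. Isg15 (chr4:156283883-156285303), whose promoter held 3 ISRE matches, had 18.9 and 42.7 FPKM, so the lower 5C-G library was still above both 5C libraries. It rose by 2.66 ± 0.43 (adjusted p = 0.000331). The other members of the ISG15 system, Usp18, Herc6 and Trim25, were not called, and Usp18 had 2.76 and 3.30 FPKM in 5C-G, on either side of its 5C level, at 0.14 ± 0.26 (adjusted p = 0.758).

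In the OAS family 4 of 5 members rose. Oas2 had 1.10 and 2.13 FPKM in 5C-G and rose by 2.64 ± 0.47 (edgeR adjusted p = 0.00078). Oas1a had 7.93 and 10.7 FPKM and rose by 2.17 ± 0.28 (3.4e-05), which put both libraries above DMSO as well. Oas3 had 0.941 and 0.445 FPKM and rose by 1.87 ± 0.44 (0.00538). Oasl1 (chr5:115061294-115075974) had 4.49 and 5.51 against 2.01 and 2.96 FPKM in 5C, at 1.15 ± 0.30 (0.0103). Oasl2, with 17.1 and 19.0 FPKM, had an adjusted p of 0.0205 but a log2 fold change of 0.57, inside the fold limit.

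Among single antiviral proteins, Bst2 (chr8:71986895-71990114) had 120 and 172 FPKM in 5C-G and 48.8 and 52.2 in 5C. It rose by 1.68 ± 0.28 (edgeR adjusted p = 0.000467), and it was the one riser that the tables hold at over 100 FPKM. Zbp1, a sensor of Z-form nucleic acid that starts necroptosis (chr2:173033815-173060724), rose by 1.44 ± 0.42 (0.0186). Psmb8, a catalytic subunit of the immunoproteasome (chr17:34416690-34420428), rose by 1.45 ± 0.28 (0.00128), and its partner Psmb9 was not called. Xaf1, which binds the apoptosis inhibitor XIAP (chr11:72192397-72204559), rose by 1.37 ± 0.27 (0.00165). Ifi35 (chr11:101339221-101352693), whose role is less settled, rose by 1.47 ± 0.32 (0.003).

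Iigp1, an immunity related GTPase of chromosome 18, was the exception. Its level was 12.5 and 12.6 FPKM in 5C and 4.74 and 3.57 in 5C-G, with no overlap, and it fell by 1.47 on the log2 scale (SE 0.23, edgeR adjusted p = 0.00022). In DMSO it was at 7.09 and 7.12 FPKM, between 5C and 5C-G. None of the 3 IFIT genes passed, and Ifit1 had 3.58 and 5.01 FPKM in 5C-G against 3.67 and 3.30 in 5C, which overlap, at 0.45 ± 0.33 (0.35). The PARP9, PARP14 and DTX3L genes, whose products act together in ADP-ribosylation and ubiquitin signalling, ran from -0.67 to -0.14 with none called. Dtx3l (-0.67) and Trim25 (-0.48) had edgeR adjusted p of 0.0247 and 0.0342 but lay inside the fold limit. At an adjusted p under 0.05 with any fold, 14 members were higher and 3 lower.

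**Figure D3:**
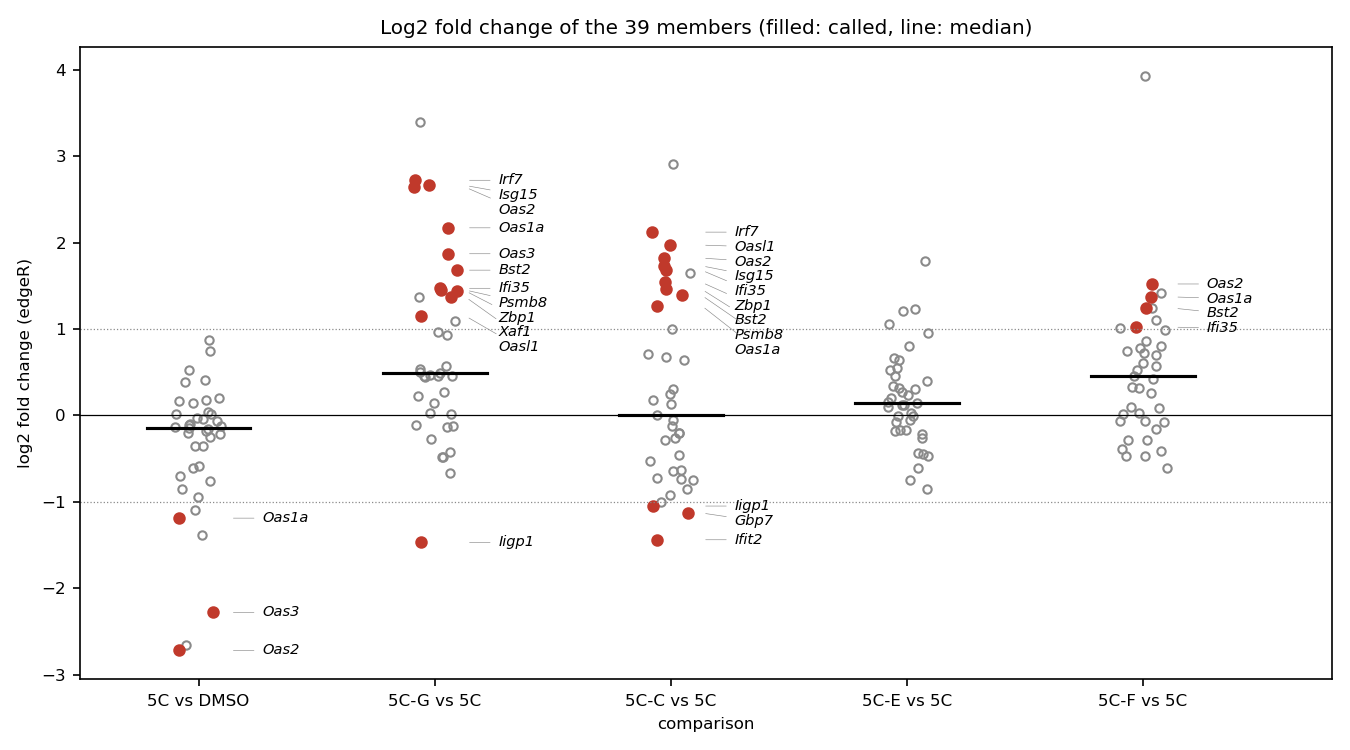
Log2 fold change (edgeR) of each of the 39 members in 5 comparisons, with called members filled and named, the median as a line and the fold limits dotted. The medians were -0.15, 0.49, 0.00, 0.14 and 0.45, and from left to right 0, 11, 9, 0 and 4 members rose; the highest open point is Mx1, with 0 to 58 counts per library.

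The GC content of the transcript moved with the 5C-G result. The 11 risers had 47.5 to 56.3% GC, with a median of 54.1%, and Iigp1 had 39%, while the median was 49.2% over the members and 49.9% over all genes. Across the 39 members Spearman's correlation between GC content and log2 fold change was 0.58, and across 19787 genes it was 0.35; genes of 1 set of libraries are not independent. With an offset for GC content and gene length fitted in each library, 8 members rose and none fell, where 5.06% of all genes rose and 4.01% fell. Irf7 was then at 2.42, Isg15 at 2.05, Oas2 at 2.71, Oas1a at 1.87, Oas3 at 1.84, Zbp1 at 1.28, Psmb8 at 1.07 and Xaf1 at 1.65, all still called. Iigp1 was at -0.74, Bst2 at 0.95, Ifi35 at 0.99 and Oasl1 at 0.70, and these 4 were not called. Macrophage markers moved as well, with 10 of 12 called higher in 5C-G, and a summed level of 5255 and 7453 FPKM. Of the markers listed as endothelial Lyve1, also a resident macrophage gene, was called higher, at 35.4 and 41.8 FPKM. Kdr was called lower, at 5.86 and 3.1. Of the 8 hepatocyte markers, Cps1, Tat and Hnf4a were called lower and Apoa1 higher, with a sum of 6458 and 7778 FPKM. Of the 7 stellate cell and fibroblast markers Des was called higher, at 67.3 and 105 against 15.5 and 15.4 FPKM in 5C, and Lrat and Reln lower, and of the 5 cholangiocyte markers Epcam and Sox9 were called lower. The part of those cells was not tested.

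Single libraries decided some of these calls. Without 5C-G B, Zbp1 was at 0.96, Xaf1 at 0.99 and Oasl1 at 0.90, and without 5C A, Zbp1 was at 1.21, Oas3 at 1.70 and Oasl1 at 0.89. Without 5C B, Zbp1 was at 1.66 and Ifi35 at 1.28, and in each of these cases the gene was not called. Irf7, Isg15 and Oas1a were called in all 12 alternatives, with adjusted p of at most 0.00178, 0.0106 and 0.00304.

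Without the protein kinase D inhibitor CID755673 (5C-C against 5C), 9 members rose and 3 fell, and the median was 0.00. Of all genes 9.65% rose and 10.5% fell, and the median over all genes was 0.00. Irf7 had 11.4 and 12 FPKM and rose by 2.12 ± 0.29 (edgeR adjusted p = 7.54e-05). Oasl1 had 9.19 and 8.22 FPKM, its highest level in any group, and rose by 1.97 ± 0.31 (0.000183). Oas2 had 1.01 and 0.828 FPKM, between 5C and DMSO, and rose by 1.82 ± 0.47 (0.00569). Isg15 had 11.5 and 20.6 FPKM and rose by 1.73 ± 0.42 (0.00412).

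Ifi35 had 11.5 and 24.2 FPKM in 5C-C and rose by 1.68 ± 0.32 (edgeR adjusted p = 0.000734). Zbp1 had 1.46 and 1.52 FPKM against 0.481 and 0.664 in 5C and rose by 1.54 ± 0.42 (0.00874). Bst2 (86.3 and 159 FPKM), Psmb8 (4.73 and 5.06 FPKM) and Oas1a (4.86 and 4.97 FPKM) rose by 1.46, 1.39 and 1.27. For each of these 9 genes both 5C-C libraries were above both 5C libraries, which a call at this fold makes likely. It adds no support, and the share of all genes that separate this way was not counted. Oas3, which rose in 5C-G, had 0.131 and 0.0900 FPKM in 5C-C, below both 5C libraries, at -0.73 ± 0.46 (adjusted p = 0.237). Gbp2, at 54.3 and 53.3 FPKM against 30.9 and 29.5 in 5C, had an adjusted p of 0.000464 with a log2 fold change of 1.00 ± 0.18, at the fold limit and not called.

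The members that fell were Ifit2, Gbp7 and Iigp1. Ifit2 (chr19:34527932-34554524), an IFIT protein that binds RNA, had 5.44 and 4.80 FPKM in 5C and 1.96 and 1.42 in 5C-C, and fell by 1.44 (SE 0.26, edgeR adjusted p = 0.000495). Gbp7 (chr3:142236044-142255910) had 2.57 and 2.24 against 1.25 and 0.727 FPKM, and fell by 1.13 (SE 0.31, 0.00813). Iigp1 had 7.03 and 3.84 FPKM in 5C-C and fell by 1.05 (SE 0.22, 0.00159). Ifih1, the cytosolic RNA sensor MDA5, was at -0.92 ± 0.23 (0.00479), inside the fold limit. Ifit1, with 2.43 and 2.73 FPKM, was at -0.26 ± 0.34 (0.585) and Usp18, with 2.38 and 2.37 FPKM, at -0.20 ± 0.26 (0.605), and both were below their 5C libraries without passing the test.

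In 5C-C the relation to GC content was the closest of the 5 comparisons over the members, with a Spearman's correlation of 0.66 across the 39 and 0.41 across all genes. The risers had 50.6 to 56.3% GC and the 3 that fell had at most 41.9%. With the offset, 6 members rose and none fell, where 5.37% of all genes rose and 4.68% fell. Irf7 (1.74), Oasl1 (1.35), Oas2 (1.90) and Zbp1 (1.32) were still called, and Gbp2 (1.10) and Oasl2 (1.09) were now called. Ifit2 was then at -0.82, Gbp7 at -0.32, Iigp1 at -0.05, Isg15 at 0.92, Ifi35 at 0.98, Bst2 at 0.45, Psmb8 at 0.88 and Oas1a at 0.83, none of them called, and Ifih1 was at 0.05.

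Without 5C-C B, Isg15 was at 1.20, Bst2 at 0.91, Iigp1 at -0.70 and Gbp7 at -0.80, and without 5C A, Oas2 was at 1.47, Zbp1 at 1.31 and Gbp7 at -1.05, none of these called. Irf7 and Oasl1 were called in all 12 alternatives. Of the 12 macrophage markers 7 were called higher and 1 lower, with a summed level of 1197 and 1883 FPKM, and no endothelial marker was called. Of the 8 hepatocyte markers Cps1, Alb and Tat were called lower and none higher, with a sum of 5015 and 4604 FPKM against 10918 and 10875 in 5C. Of the stellate cell and fibroblast markers Des was called higher and Lrat and Reln lower, Reln at 0.0905 and 0.0832 against 2.47 and 2.26 FPKM in 5C. The cholangiocyte marker Krt19 was called higher, at 224 and 202 against 77.1 and 71.9 FPKM. Their part in the 5C-C result was not tested.

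**Figure D4:**
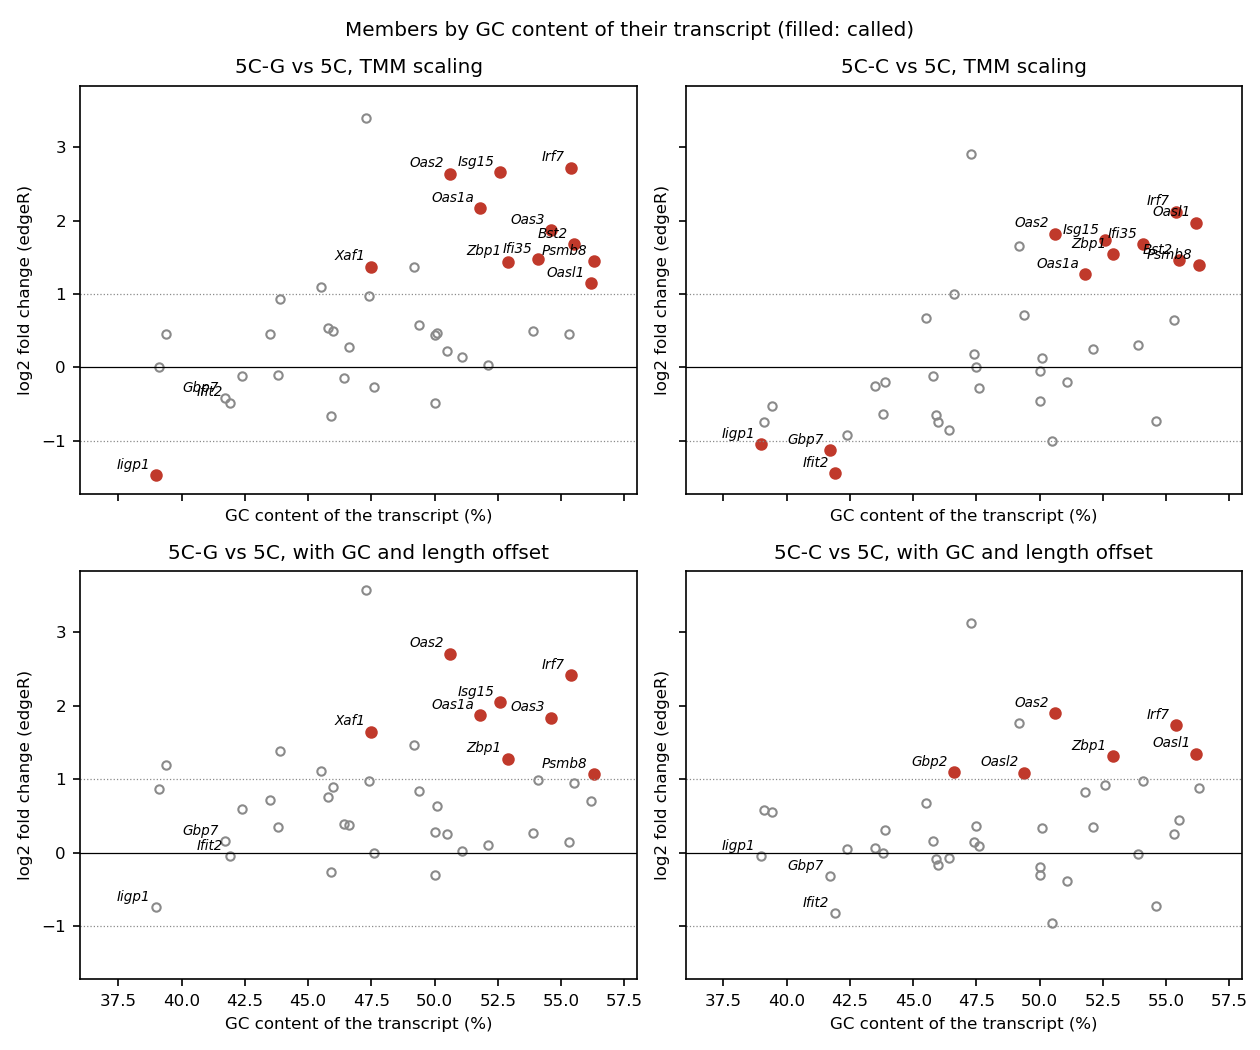
Log2 fold change of the 39 members against the GC content of their transcript (%), for 5C-G and 5C-C against 5C, with TMM scaling (top) and with the GC and length offset (bottom); called members are filled. Spearman's correlation was 0.58 and 0.66 without the offset and 0.24 and 0.31 with it, and Iigp1, Ifit2 and Gbp7 lay at the low GC end.

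Without ETC-1002 (5C-E against 5C), no member was called by edgeR's test, where 0.654% of all genes rose and 1.31% fell. The median was 0.14, beside 0.01 over all genes. At an unadjusted p under 0.05 and any fold, 7 members were higher and 4 lower, where 7.71% and 6.83% of all genes were. DESeq2 called 1 member and limma on log2(FPKM + 1) called 0. With a block for the running number of the columns, chosen after seeing the data and described below, edgeR called Isg15 and Irf7 higher. With the offset for GC content none was called, beside 0.563% of genes higher and 1.43% lower. Irf7 had 7.39 and 5.77 FPKM in 5C-E, above both 5C libraries, at 1.06 ± 0.29 (edgeR adjusted p = 0.057, from 0.000197 to 0.432 over the alternatives). Isg15 had 13.4 and 13.2 FPKM, again above both, at 1.21 ± 0.42 (0.159). Oasl2 had 21.8 and 22.9 FPKM against 14.0 and 12.9, at 0.66 ± 0.17 (0.0427), inside the fold limit. Iigp1 went the other way, with 8.01 and 6.63 FPKM against 12.5 and 12.6, at -0.85 ± 0.22 (0.0489), also inside it. Ifit1 (2.81 and 1.53 FPKM) and Usp18 (2.04 and 2.16 FPKM) were below both 5C libraries, at -0.75 ± 0.34 (0.317) and -0.61 ± 0.26 (0.286). None of the 12 macrophage markers was called here, and their sum was 774 and 942 FPKM. Of the 8 hepatocyte markers, however, Alb, Cps1, Ttr and Tat were called lower, with a sum of 3574 and 3076 FPKM against 10918 and 10875 in 5C, and the endothelial marker Kdr was called higher. Of the stellate cell and fibroblast markers Des was called higher and Reln lower, and no cholangiocyte marker was called. The part of these in the values was not tested.

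Without forskolin (5C-F against 5C), 4 members rose and none fell, where 2.69% of all genes rose and 2.15% fell, and the median was 0.45 beside -0.01 over all genes. Oas1a had 5.44 and 5.66 FPKM and rose by 1.37 ± 0.27 (edgeR adjusted p = 0.00522). Oas2 had 0.569 and 1.00 FPKM and rose by 1.52 ± 0.46 (0.0452). Bst2 had 85.8 and 138 FPKM and rose by 1.24 ± 0.28 (0.0119). Ifi35 had 10.2 and 13.8 FPKM and rose by 1.02 ± 0.32 (0.0493), close to both limits. For all 4 genes both 5C-F libraries were above both 5C libraries, which again follows closely from the call and adds no support.

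In 5C-F the members that did not pass included some that stood at their highest. Ifit1 had 7.76 and 5.04 FPKM, above every DMSO and 5C library, at 0.99 ± 0.33 (edgeR adjusted p = 0.0679). Usp18 had 5.69 and 4.60 FPKM, above all other libraries, with an adjusted p of 0.0443 and a log2 fold change of 0.86 ± 0.26, inside the fold limit. Irf7 had 3.58 and 6.10 FPKM, at 0.78 ± 0.29 (0.0913), and Isg15 had 6.47 and 14.4 FPKM, at 1.01 ± 0.42 (0.129). With the offset, 3 members rose, namely Oas1a at 1.11, Oas2 at 1.56 and Ifit1 at 1.02, where 2.07% of all genes rose and 1.68% fell. No member was called without 5C A, 1 was without 5C B and 1 without 5C-F B. Of the macrophage markers 10 of 12 were called higher, with a sum of 1781 and 2149 FPKM. Of the 8 hepatocyte markers Ttr, Serpina1e and Apoa1 were called higher and none lower, with a sum of 21532 and 17125 FPKM. Lyve1, listed as endothelial but also a resident macrophage gene, was called higher. The cholangiocyte marker Krt19 was called higher, at 132 and 161 against 77.1 and 71.9 FPKM, and no stellate cell or fibroblast marker was called. The part of these in the result was not tested.

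Without salidroside (5C-S) there was 1 library, so no test was made. Against the mean of the 5C libraries, 6 members differed by more than 1 on the log2 CPM scale upward and none downward, where 8.1% of all genes did upward and 7.35% downward. They were Mx2 (2.15), Oas2 (1.30), Irf7 (1.23), Isg15 (1.17), Ifit3 (1.13) and Zbp1 (1.05). The median member differed by 0.25, beside 0.00 over all genes. Irf7 was at 7.11 FPKM, Isg15 at 12.6, Ifit1 at 5.53 and Usp18 at 3.37. Mx2 rested on 61 counts in 5C-S against 28 and 4 in 5C.

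**Figure D5:**
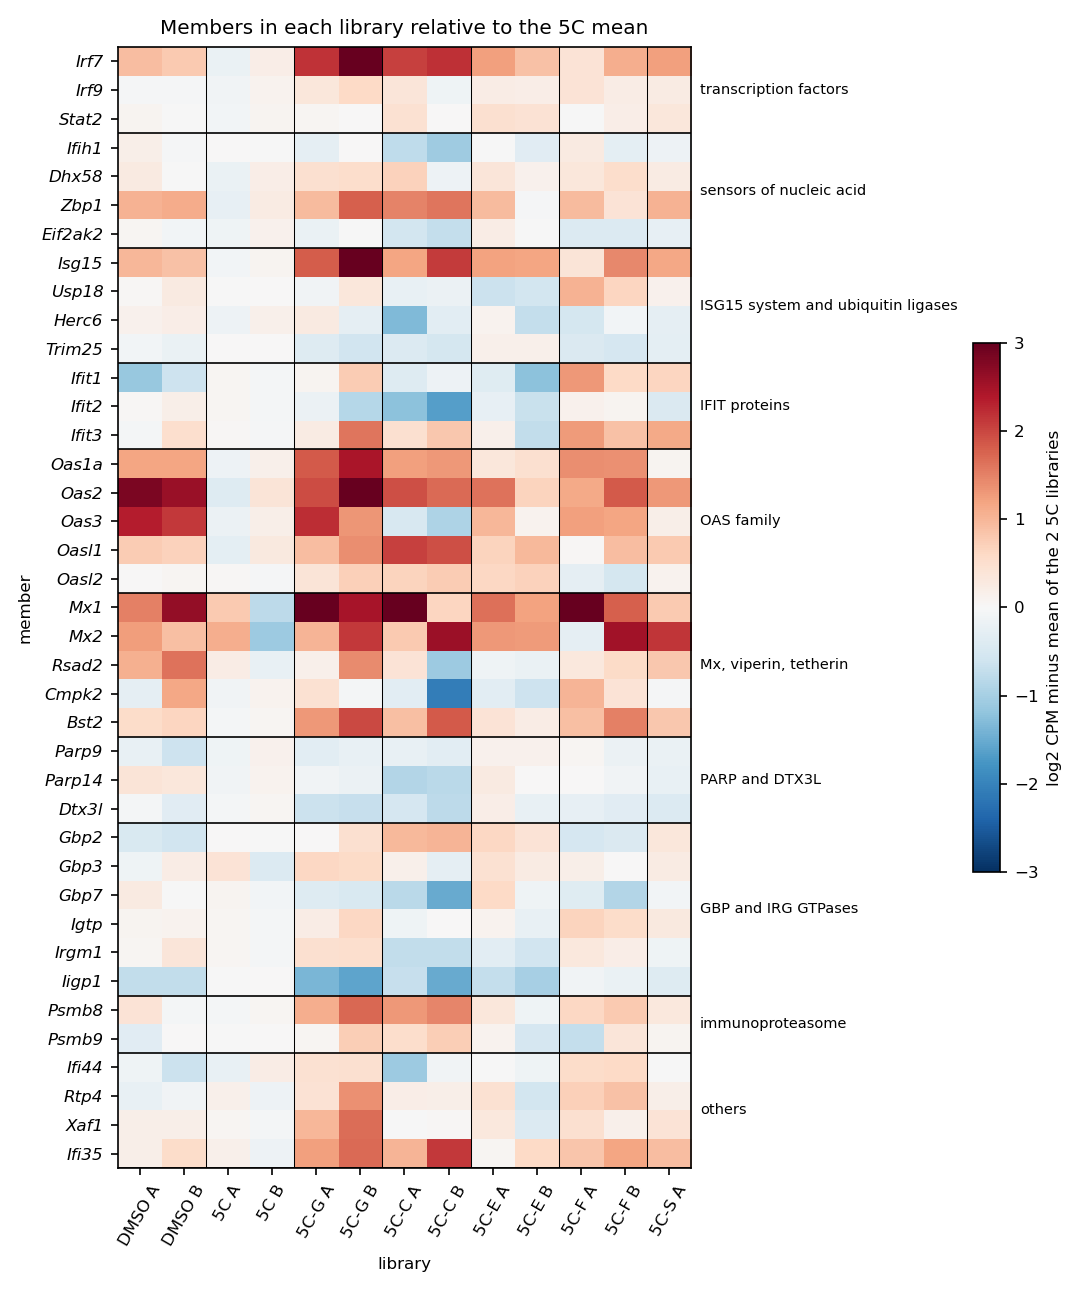
Level of the 39 members (rows, grouped by role) in the 13 libraries (columns) as log2 CPM minus the mean of the 5C libraries, with the colour scale ending at -3 and 3. Irf7 and Isg15 were above the 5C mean in all 11 other libraries, whereas Iigp1 was below it in all 11.

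Across the 5 tests 14 members were called at least once and 25 never, where 27.7% of all genes were called at least once. Oas1a and Oas2 were called in 4 tests each, lower in 5C and higher with GSK429286A, CID755673 or forskolin left out, and as all 4 tests use the 5C libraries these calls are not independent. Oas1a in 5C-C was at 0.83 with the offset and not called, and Oas2 in 5C-F was called in 5 of 12 alternatives. Of the 3 IFIT genes, which lie together on chromosome 19, Ifit2 was called once and Ifit1 and Ifit3 never. With the offset Ifit2 in 5C-C was at -0.82 and not called, and Ifit1 was called higher in 5C-F (1.02). None of the 3 PARP and DTX3L genes was called in any of the 5 tests. Of the 6 GBP and IRG GTPases, Iigp1 and Gbp7 were the ones called, both lower, and with the offset neither was called in any test and Gbp2 was called higher in 5C-C (1.10). Of 3 transcription factors Irf7 was the one called, and Stat2 ran from 4.70 to 8.05 FPKM over all libraries.

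Of 54 further pathway genes, 46 were in the tables and 44 were tested. Of the 11 interferon genes listed, Ifne, Ifnk and Ifnz had rows, with at most 8, 6 and 15 counts in a library. Over the 44, 4 fell and none rose in 5C against DMSO, 9 rose and none fell in 5C-G, 6 rose and 1 fell in 5C-C, 1 rose in 5C-E and 2 rose in 5C-F. The shares over all genes were those given above for each comparison, 2.89% lower for 5C, 7.47% higher for 5C-G, 9.65% higher and 10.5% lower for 5C-C, 0.654% higher for 5C-E and 2.69% higher for 5C-F. With the GC and length offset the counts were 4 lower in 5C, 5 higher in 5C-G, 1 higher in 5C-C, 0 in 5C-E and 2 higher in 5C-F. Of 9 receptor and kinase genes, Il10rb, a subunit of the interferon lambda and IL-10 receptors, was the one called, at -1.10 in 5C and 1.07 in 5C-G. Its calls ended without the library 5C B, where these values were -0.95 and 0.88.

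Irf8, a factor of myeloid cells, had 5.99 and 5.72 FPKM in DMSO, 0.629 and 0.803 in 5C and 5.05 and 5.76 in 5C-G. It fell by 3.10 in 5C (edgeR adjusted p = 1.25e-06) and rose by 3.06 in 5C-G (1.63e-06), by 1.09 in 5C-C (0.00531) and by 1.41 in 5C-F (0.00509). Without 5C A the values of 5C-C and 5C-F were 0.90 and 1.22, and without 5C-F B that of 5C-F was 1.09, none of them called. Tlr7, an endosomal RNA sensor, had 18.0 and 16.3 FPKM in DMSO, 2.96 and 3.22 in 5C and 10.7 and 11 in 5C-G, at -2.55 and 1.95. In 5C-C Tlr7 had 2.23 and 1.85 FPKM and was not called. The macrophage markers, whose sums are given above, moved as well in 5C, 5C-G, 5C-C and 5C-F, and their part in the values of both genes was not tested. Tmem173, which encodes STING, had 13.3 to 22.9 FPKM over all libraries and was never called.

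Socs1, an inhibitor of JAK kinases, was at 0.225 and 0.470 FPKM in 5C and 1.48 and 1.16 in 5C-G, and rose by 2.04 (edgeR adjusted p = 0.00468). In 5C-C it rose by 1.83 (0.00594), and without 5C A neither was called, at 1.59 and 1.38. Socs3, which restrains IL-6 signalling, had 19.0 and 19.9 FPKM in 5C and 52.4 and 60.6 in 5C-C, and rose by 1.71 (0.000183). It was the one pathway gene called in 5C-E, at 1.16 (0.0224), and there it was not called without 5C A (1.11), 5C B (1.25) or 5C-E B (0.91). Of 11 genes of MHC class I presentation, Psmb10, the third immunoproteasome subunit, rose in 5C-G, 5C-C and 5C-F by 1.49, 1.42 and 1.04. With the GC offset those were 0.87, 0.54 and 0.62 and not called. The class I heavy chain gene H2-D1 rose in 5C-G, to 648 and 691 from 337 and 342 FPKM, and in 5C-C the peptide transporter gene Tap1 rose by 1.19 and the proteasome activator gene Psme2 by 1.16. Erap1, an aminopeptidase that trims peptides, fell by 1.41 in 5C-C. With the offset the log2 fold changes of these 4 genes were 0.69, 0.86, 0.60 and -0.45, inside the fold limit. In the same way Socs1 in 5C-C was at 1.07 (adjusted p = 0.106) and Socs3 at 0.96 in 5C-C and 0.87 in 5C-E, none of them called. The chemokines Cxcl9, Cxcl10 and Cxcl11 had at most 26, 85 and 10 counts and were not called.

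Several members have close copies with which short reads can be shared. Copies of Oas1a in the tables ran up to 4.64 FPKM (Oas1c) and 2.64 FPKM (Oas1b), and Oas1g up to 1.97 FPKM. Ifit3b reached 0.595 FPKM and Ifit1bl1 reached 1.21 FPKM. Irgm2 had 2.88 to 10.7 FPKM and Tgtp1 and Tgtp2 at most 2.38 and 2.03 FPKM. How shared reads were counted is not given in the sources used here, so values of Oas1a, Ifit1, Ifit3, the GBP genes and the IRG genes are uncertain to that extent.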

How the data were processed

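RNA-seq of 13 libraries of dHeps was analysed from 2 deposited tables, one of read counts per gene and one of FPKM values. The authors counted reads on GRCm39, and their processing notes name featureCounts, Subread and DESeq2; aligner, annotation release and strand setting are not given in the sources used here. The authors' FPKM values are counts scaled to gene length and library size, and were used for levels. Both tables name libraries by group and a running number that could not be tied to a sample number, so the letters A and B follow the order of the columns and were not taken as pairs. No column of per-sample values was left out (0).

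Counts were tested in edgeR 4.0.16 (R 4.3.3) by the quasi-likelihood test, 1 fit over all 7 groups with TMM scaling and filterByExpr (minimum count 10), Benjamini-Hochberg adjustment over 19884 genes, 6 residual degrees of freedom and a common biological coefficient of variation of 0.261. A call needed adjusted p under 0.05 and a log2 fold change beyond 1. Alternatives used total counts, DESeq2 1.42.0, limma 3.58.1 on log2(FPKM + 1) and log2(FPKM + 0.1), other filters, only the 2 groups compared, an offset per library for GC content and gene length (mgcv 1.9.3, 99.51% of genes with values), each library left out, and the running number of the columns as a block. The offset was fitted to each library as a smooth of log counts. GC content came from Ensembl canonical transcripts. The edgeR step was first tested on simulated data.

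Called members are named, up to 6 with the largest change in each direction in full, and Irf7, Isg15, Ifit1 and Usp18 are given in each comparison. Further members and pathway genes were named after their values were seen. The members and all lists (pathway genes, cell type markers, copies) were chosen with earlier results of these data known. Mb21d1 and Tmem173 are the older symbols of 2 listed genes. Intervals and p-values rest on 2 libraries a group, and the depth of at least 30195867 counts limits genes such as Mx1.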

Additional observations from a re-analysis of the deposited data

How the results depend on the processing

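With 2 libraries a group, and 1 for 5C-S, the tests find large changes only, and members under 1 FPKM rest on few counts. The labels give the groups no shared replicate numbers, but the columns carry a running number, 1 or 2 in each group, which no source ties to an animal or a batch. Differences between libraries 2 and 1 correlated across 14208 genes at -0.08 to 0.10 between the groups compared. Between other groups the correlation was -0.04 to 0.28, highest for 5C-C with 5C-G (0.28), 5C-F with 5C-E (0.23) and 5C-C with 5C-F (0.17), so whether the number marks a shared source is not settled. With that number as a replicate block, an alternative chosen after seeing the data, the members called were the same 3 in 5C against DMSO, the same 12 in 5C-G and the same 12 in 5C-C. In 5C-E 2 were called against 0 (Isg15 and Irf7, both higher), and in 5C-F 3 against 4 (without Ifi35). The cause was not tested.

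The number of members called moved by over 1.5 times under some settings, and the cause was not tested. In 5C against DMSO (3 called) it was 1 with limma on log2(FPKM + 1), 5 with only the 2 groups compared and 5 at unadjusted p, and 1 to 3 with a library left out. In 5C-G (12 called) it was 6 with limma on log2(FPKM + 1), and 9 to 14 with a library left out. In 5C-C (12 called) it was 7 with limma on log2(FPKM + 1), 6 with the GC offset and 20 with no fold limit, and 9 to 15 with a library left out. In 5C-E (0 called) it was 1 with total counts, 1 with DESeq2, 2 with no filter on low counts, 2 with only the 2 groups, 2 with no fold limit and 3 at unadjusted p with the fold limit. In 5C-F (4 called) it was 2 with total counts, 0 with limma on log2(FPKM + 1), 1 with limma on log2(FPKM + 0.1) and 8 at unadjusted p, and 0 to 3 with a library left out. A pseudocount of 1 FPKM shrinks the change of low members by construction.

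The median log2 fold change of the members moved by more than the spread of library medians under the settings named next, except that the ranges with a library left out also hold values within that spread, and for 5C-G hold no others. For 5C against DMSO (-0.15) it was -0.08 with total counts, -0.04 on log2(FPKM + 1) and -0.18 to -0.09 with a library left out. For 5C-G (0.49) it was 0.23 on log2(FPKM + 1), 0.76 with the offset and 0.39 to 0.63 with a library left out. For 5C-C (0.00) it was -0.16 with total counts, -0.07 on log2(FPKM + 1), 0.31 with the offset and -0.11 to 0.19 with a library left out. For 5C-E (0.14) it was 0.21 with total counts and 0.01 to 0.27 with a library left out. For 5C-F (0.45) it was 0.36 with total counts, 0.20 on log2(FPKM + 1) and 0.33 to 0.56 with a library left out. For 5C-S (0.25, no test) it was 0.14 on log2(FPKM + 1) and 0.15 without 5C A.

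Of 67 gene values checked under the alternatives, 6 results changed sign, all in genes that were not called. Usp18 in 5C-G (0.14) was at -0.01 with total counts and with limma at either pseudocount and at -0.10 to 0.34 with a library left out. In 5C-C, Ifit1 (-0.26) was at 0.07 and Ifih1 (-0.92) at 0.05 with the offset. In 106 results a call was lost and in 21 one was gained, with the direction kept.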
